A study of Homo sapiens with 10 samples.

Results

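The enzymes described are the human fatty acid elongases, ELOVL1 to ELOVL7, and the front-end desaturase family, FADS1 to FADS3. These 10 genes were taken by symbol from the 18377 genes that the array names, as the transcript cluster of highest mean intensity, and each gene had 1 cluster. They were measured in BEAS-2B, an established line of bronchial epithelial cells, as parental cells and as 9 lines grown out from soft agar colonies. The control group held 3 lines from colonies that arose without chromate, and the Cr_small and Cr_large groups held 3 lines each from small and large colonies of cells given 0.5 μM potassium chromate for 30 days before 3 weeks in soft agar. The parental cells were measured on 1 array. All 10 arrays carry identical treatment text in their labels, so the groups rest on the titles and the cell type labels, and on the paper for the control lines having had no chromate. Each line was grown from 1 colony and measured on 1 array, and all lines have passed through soft agar while the parental cells have not. The p-values below therefore measure the spread between such lines, and no repeat of the exposure is described.

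Elongases sit in the endoplasmic reticulum and carry out the first step of a cycle that lengthens an activated fatty acid by a pair of carbons, after which a reductase, a dehydratase and a further reductase complete the turn. Each elongase prefers certain chains, so that some act on saturated and monounsaturated acids and others on polyunsaturated ones. Desaturases place double bonds in the chain, and FADS2 and FADS1 alternate with elongases on the route from linoleic and alpha-linolenic acid to arachidonic and docosahexaenoic acid. In the airway, such chains enter the membranes of the epithelium.

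Values are log2 intensities, which ran from 4.32 to 14.05 over the arrays with a median of 5.86, and a cluster near the 10th percentile of 4.60 cannot be told from background. Intensities of different genes come from different probes and were not set against each other. The epithelial label was in part borne out. Of 8 measured epithelial markers, KRT7, KRT8 and KRT18 were over 7 in every array. KRT19 was 6.07 to 6.27 in the control lines and 5.79 to 10.07 in the Cr lines, and KRT14 was 6.66 to 6.86 in the control lines and had a log2 fold change of 0.09. EPCAM, CDH1 and KRT5 lay below the overall median in every array, and NKX2-1, SCGB1A1, FOXJ1 and MUC5B of the differentiated airway read 5.01 to 5.96, around or below that median. None of the 4 leukocyte, 3 endothelial and 3 adipocyte markers had a mean over 7. CD14 at 5.66 to 6.82, LST1 at 5.97 to 6.23 and PLIN1 at 6.03 to 6.20 lay around or above the overall median, and the others lay below it in every array. The epithelial markers were summed on the linear scale over the same clusters in each array. They came to 7691 to 9575 in the control lines, 9553 in the parental cells and 11336 to 15641 in the Cr lines. These sums rest mostly on KRT7, KRT8 and KRT18. Those 3 of 8 markers were called higher in the Cr lines, where 5.33% of all clusters were. EPCAM, CDH1, KRT5, KRT14 and KRT19 were not called. The summed intensity of the 8 mesenchymal markers, of which VIM, CDH2 and COL1A1 had a mean over 7, was 6359 to 11442 in the control lines and 7256 to 9263 in the Cr lines. The part of these markers in the results below was not tested.

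**Figure D1:**
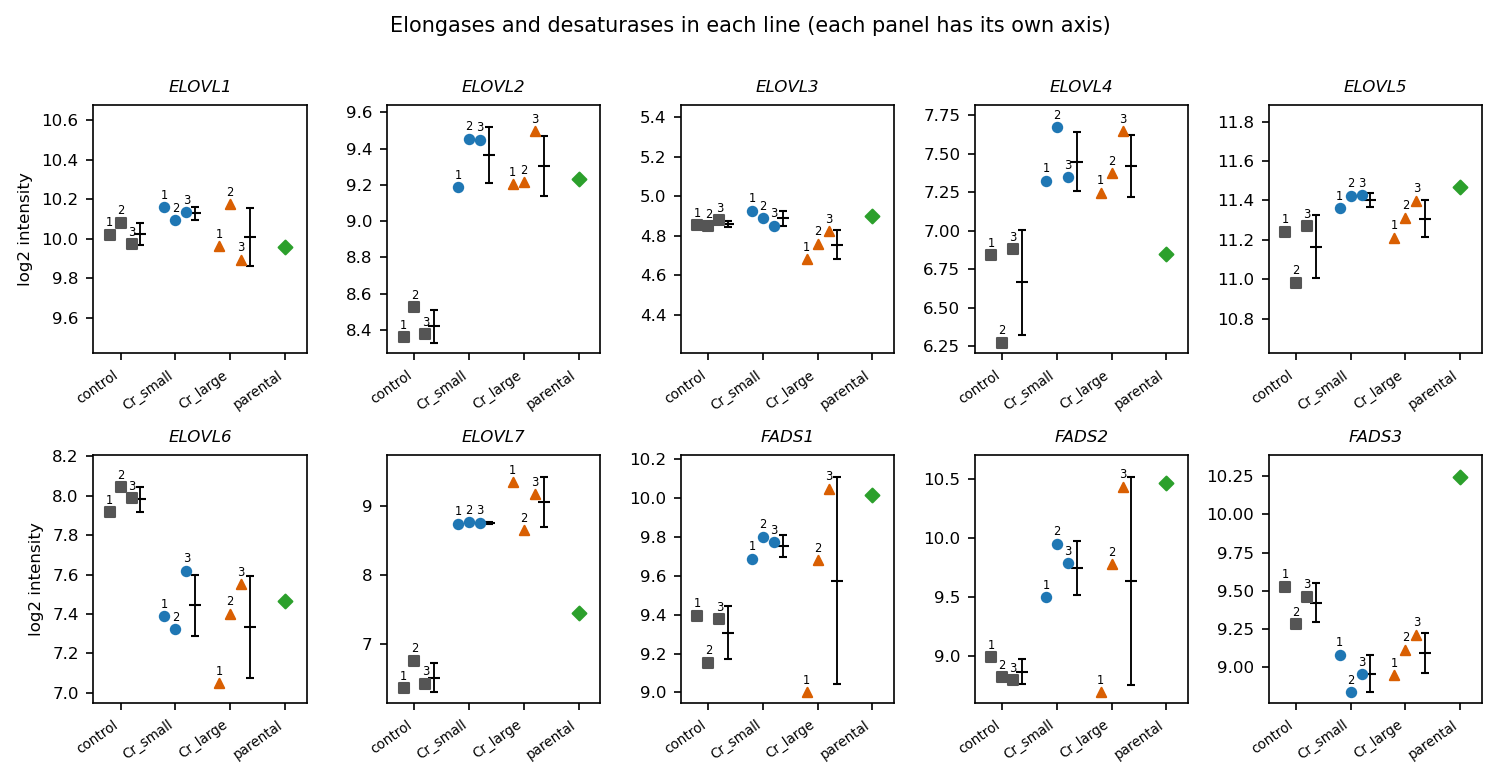
Log2 intensity of the 10 genes in each of the 10 arrays. Each panel has its own axis, numbered points are lines of the control (squares), Cr_small (circles) and Cr_large (triangles) groups, the diamond is the single parental array, and bars give the mean and SD of 3 lines. The Cr lines lie above all control lines for ELOVL2, ELOVL4 and ELOVL7 and below them for ELOVL6 and FADS3, while Cr_large 1 is the lowest Cr line for FADS1 and FADS2.

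Among the 9 genes besides ELOVL7, whose rise was known when the family was chosen, 4 differed between the 6 Cr lines and the control lines. ELOVL2 and ELOVL4 were higher and ELOVL6 and FADS3 were lower, and FADS1, FADS2, ELOVL1, ELOVL3 and ELOVL5 did not pass the test (limma, Benjamini-Hochberg adjusted p under 0.05). Over all 28869 clusters of the array, 11.0% passed in either direction, 5.33% higher and 5.72% lower. Without control 3 the count was 2, and without Cr_large 1 it was 6. Without regard to the test, the Cr and control lines did not overlap for 5 of the 10 genes, ELOVL7 among them, and for 16.7% of all clusters. The Cr lines were above for 3 genes, ELOVL7 counted, and for 8.85% of clusters, and below for 2 genes and for 7.84% of clusters. The median log2 fold change of the 9 genes was 0.19, against 0.01 over all clusters. In such bulk RNA, a lower value from fewer cells of a kind and one from less RNA in each cell cannot be told apart.

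The promoter sequences of ELOVL7 and ELOVL2, the elongases that lay farthest above the control lines, and of FADS1 and FADS2, which had the same lowest and highest Cr line, are shown here so that the genes can be located. They are RefSeq sequences of GRCh38.p14, 5′ to 3′ on the strand of the gene, from 250 bases before the transcription start to 50 bases after it. ELOVL7 is at chr5:60844220-60844519 on the minus strand, ELOVL2 at chr6:11044256-11044555 on the minus strand, FADS1 at chr11:61816954-61817253 on the minus strand and the second of the FADS2 starts at chr11:61816154-61816453 on the plus strand. Capitals mark the GC box GGGCGG and the CCAAT box on either strand.
ELOVL7: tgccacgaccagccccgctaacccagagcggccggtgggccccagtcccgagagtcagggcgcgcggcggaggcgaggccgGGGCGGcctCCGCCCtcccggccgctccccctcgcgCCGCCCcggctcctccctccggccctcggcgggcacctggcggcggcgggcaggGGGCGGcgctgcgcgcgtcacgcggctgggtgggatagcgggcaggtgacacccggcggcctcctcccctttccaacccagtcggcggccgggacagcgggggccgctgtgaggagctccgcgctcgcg
ELOVL2: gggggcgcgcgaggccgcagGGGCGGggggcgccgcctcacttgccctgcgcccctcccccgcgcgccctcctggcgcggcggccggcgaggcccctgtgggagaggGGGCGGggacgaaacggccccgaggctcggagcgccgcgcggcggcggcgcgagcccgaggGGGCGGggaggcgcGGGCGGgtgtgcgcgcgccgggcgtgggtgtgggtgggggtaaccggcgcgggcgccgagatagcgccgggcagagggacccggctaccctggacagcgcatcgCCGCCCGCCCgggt
FADS1: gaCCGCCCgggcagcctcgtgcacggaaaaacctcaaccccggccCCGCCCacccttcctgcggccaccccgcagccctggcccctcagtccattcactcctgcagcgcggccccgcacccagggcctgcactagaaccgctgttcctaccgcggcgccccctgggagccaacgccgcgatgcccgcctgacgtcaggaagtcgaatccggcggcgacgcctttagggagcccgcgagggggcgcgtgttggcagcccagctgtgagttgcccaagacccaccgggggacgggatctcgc
FADS2: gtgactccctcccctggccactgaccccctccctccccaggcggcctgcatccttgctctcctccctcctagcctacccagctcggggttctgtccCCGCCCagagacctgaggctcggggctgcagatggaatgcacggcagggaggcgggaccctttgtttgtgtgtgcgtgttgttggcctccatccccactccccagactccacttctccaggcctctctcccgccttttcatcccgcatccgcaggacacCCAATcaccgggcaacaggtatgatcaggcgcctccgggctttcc
The windows of ELOVL7, ELOVL2 and FADS1 held 4, 6 and 2 GC boxes and no CCAAT box, some of those of ELOVL2 overlapping. The FADS2 window shown held 1 of each, and the window of the other FADS2 start held 0 of each. Of the 10 genes, 9 had a GC box in at least 1 window, ELOVL5 being the exception, against 45% of 35116 promoters of the same length, and 6 had a CCAAT box, against 34.6%. These shares are of single windows, while FADS2 was counted if either of its windows held the box. The letters TCACNCCAC, a form of the sterol regulatory element, were searched on both strands and occurred in 1.13% of promoters and in the windows of 0 of the 10 genes, which says nothing of binding outside these letters or windows. The FADS1 start lies 800 and 599 bases beyond the starts listed for FADS2, on the opposite strand, and the genes run across each other's starts.

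ELOVL2, which carries the polyunsaturated chains of the arachidonic and docosahexaenoic acid routes to their longer products, was higher in every Cr line. It was 8.36, 8.53 and 8.38 in the control lines, 9.19, 9.45 and 9.45 in the Cr_small lines and 9.20, 9.22 and 9.49 in the Cr_large lines. The lowest Cr line stood 0.66 above the highest control line, and the SD was 0.09 in the control lines (n = 3) and 0.15 in the Cr lines (n = 6). The log2 fold change was 0.91 with a standard error of 0.09, a 1.88-fold rise (limma adjusted p = 0.000961). The call held when any 1 line was left out.

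ELOVL4, which builds the very long chains of skin, retina and brain lipids, was also higher, with a wider spread among the control lines. The control lines read 6.84, 6.28 and 6.88, the Cr_small lines 7.33, 7.67 and 7.35 and the Cr_large lines 7.25, 7.37 and 7.64. All 6 Cr lines were above all 3 control lines, with a gap of 0.37. The log2 fold change was 0.77 (SE 0.16), or 1.70-fold (limma adjusted p = 0.0193).

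ELOVL5, the polyunsaturated elongase that acts on shorter chains than ELOVL2, did not pass the test. It read 11.24, 10.98 and 11.27 in the control lines, 11.36, 11.42 and 11.43 in the Cr_small lines and 11.21, 11.31 and 11.40 in the Cr_large lines. The groups overlapped by the line Cr_large 1 alone, and the log2 fold change was 0.19 (limma adjusted p = 0.15).

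ELOVL6, which lengthens palmitic to stearic acid and so stands between new fatty acid synthesis and the longer chains, was lower in every Cr line. It was 7.92, 8.04 and 7.99 in the control lines, 7.39, 7.32 and 7.62 in the Cr_small lines and 7.05, 7.40 and 7.55 in the Cr_large lines. The control lines lay close together, with an SD of 0.06 (n = 3), and the nearest Cr line was 0.30 below them. The log2 fold change was -0.59 with a standard error of 0.11, which is 1.51-fold lower (limma adjusted p = 0.0139). The call was lost without control 2 (adjusted p = 0.0509) and without control 3 (adjusted p = 0.0595), with the direction unchanged.

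ELOVL1 and ELOVL3, which also act on saturated and monounsaturated chains, did not pass the test. ELOVL1, which supplies very long chains for sphingolipids, was 10.02, 10.08 and 9.97 in the control lines and 9.89 to 10.17 in the Cr lines, with a log2 difference of 0.05 and a 95% interval from -0.10 to 0.19. ELOVL3, known from skin and brown fat, stayed between 4.68 and 4.93 in all arrays, near the background of the array.

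ELOVL7, an elongase of long chains with saturated ones among them, had the widest distance between the Cr and control lines of the 10 genes. It read 6.36, 6.76 and 6.43 in the control lines. The Cr_small lines were nearly identical at 8.75, 8.77 and 8.76, and the Cr_large lines read 9.35, 8.66 and 9.18. The SD was 0.01 in the Cr_small group and 0.36 in the Cr_large group (n = 3 each), and the lowest Cr line was 1.90 above the highest control line. The mean was 4.75-fold above control in the Cr_small lines and 5.86-fold in the Cr_large lines. These values chose the family in part, so no test of them is given. The Cr_large mean exceeded the Cr_small mean by 0.30 on the log2 scale, and Cr_large 2 lay below all Cr_small lines.

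The genes whose values, each centred on its own mean over the 10 arrays, lay nearest to those of ELOVL7 were LYPD6B, EPHA4, SIMC1, NOX4 and ZNF788P. EPHA4 is an ephrin receptor and NOX4 an NADPH oxidase. Their root mean square differences from ELOVL7 were 0.30, 0.33, 0.34, 0.34 and 0.35, where the values of ELOVL7 itself varied by 1.11 about their mean. The likeness is measured over 10 arrays in which the step between control and Cr lines is the main variation.

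FADS2, the first desaturase of the polyunsaturated route, and FADS1, the desaturase that yields arachidonic acid, lay above all control lines in 5 of the 6 Cr lines and below all of them in the remaining one, Cr_large 1. FADS2 was 8.99, 8.82 and 8.79 in the control lines and 9.50, 9.95 and 9.78 in the Cr_small lines. In the Cr_large lines it was 8.69, 9.78 and 10.43, so that Cr_large 1 lay below every control line and Cr_large 3 above every other line. FADS1 had the same lowest and highest lines among the Cr lines, with 9.40, 9.15 and 9.38 in the control lines, 9.69, 9.80 and 9.77 in the Cr_small lines and 9.00, 9.68 and 10.05 in the Cr_large lines. The Cr lines thus spanned 3.34-fold for FADS2 and 2.07-fold for FADS1, in both cases from Cr_large 1 to Cr_large 3.

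The FADS2 and FADS1 differences did not pass the test over all 6 Cr lines, at 1.77-fold (limma adjusted p = 0.165) and 1.28-fold (adjusted p = 0.327). Without Cr_large 1 they were 2.08-fold for FADS2 (adjusted p = 0.00979) and 1.42-fold for FADS1 (adjusted p = 0.0214). That line was singled out by its low values of these same genes, so its omission is no test of them. With each line left out in turn, neither gene passed except without Cr_large 1, and the limma adjusted p reached 0.34 for FADS2 and 0.576 for FADS1. Cr_large 1 was also the lowest Cr line for ELOVL3, ELOVL4, ELOVL5 and ELOVL6 and the highest for ELOVL7. The labels do not set this line apart from Cr_large 2 and Cr_large 3. It was the highest Cr line for the markers KRT19 at 10.07, VIM at 12.23, COL1A2 at 7.41 and EPCAM at 5.71. For CDH2 at 10.38 and CD14 at 5.66 it was the lowest of all lines. These markers were picked from 30, and the mesenchymal ones among them went both ways. Each of the 6 Cr lines was the highest or lowest Cr line for some markers. Among 30 markers nearly any line would be, so this cannot decide whether Cr_large 1 stands apart. The part of these markers in its FADS1 and FADS2 values was not tested.

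FADS3, which acts on the sphingoid bases of ceramides, lies beside FADS1 and FADS2 on chromosome 11 and was lower in every Cr line. It was 9.53, 9.28 and 9.46 in the control lines, 9.08, 8.83 and 8.95 in the Cr_small lines and 8.95, 9.11 and 9.21 in the Cr_large lines. All Cr lines were below all control lines, by as little as 0.07. The log2 fold change was -0.40 (SE 0.08), or 1.32-fold lower (limma adjusted p = 0.0204). The call was lost without control 1 (adjusted p = 0.0871) and without control 3 (adjusted p = 0.0857).

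**Figure D2:**
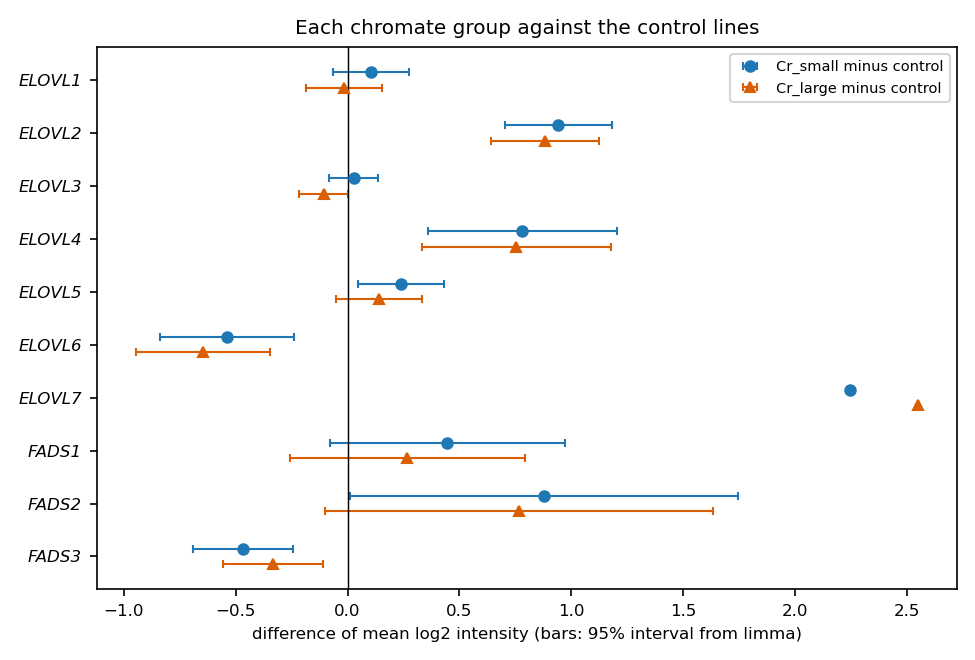
Difference of the mean log2 intensity of the Cr_small lines (circles) and the Cr_large lines (triangles) from the control lines for each gene, with 95% intervals from limma not adjusted for multiple tests, except for ELOVL7, of which only the means are drawn. The 2 groups share the control lines, their intervals overlap for every other gene, and those of FADS1 and FADS2 are the widest.

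Each colony size was also set against the control lines, which both comparisons share. ELOVL2, ELOVL4, ELOVL6 and FADS3 passed in the Cr_small lines, 4 of 9 genes against 8.26% of all clusters. ELOVL2, ELOVL4 and ELOVL6 passed in the Cr_large lines, 3 of 9 against 7.44%. ELOVL2 was 1.92-fold higher in the Cr_small lines and 1.84-fold higher in the Cr_large lines, and ELOVL4 was 1.72-fold and 1.69-fold higher. ELOVL6 was 1.45-fold and 1.57-fold lower. FADS3 was 1.38-fold lower in the Cr_small lines (limma adjusted p = 0.0247) and 1.26-fold lower in the Cr_large lines (adjusted p = 0.0858). The ELOVL4 call in the Cr_large lines (limma adjusted p = 0.047) was lost whichever line was left out, at 0.0516 to 0.119. In the Cr_small lines the adjusted p of ELOVL4 was 0.0387, and 0.0413 to 0.115 with a line left out. With 1 line left out, the Cr_small count was 1 without control 1, control 3 or Cr_small 2 and 2 without control 2, Cr_small 1, Cr_small 3 or Cr_large 2, and the Cr_large count was 1 without any 1 control line or without Cr_large 2.

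None of the 9 genes besides ELOVL7 passed between the Cr_large and Cr_small lines, and neither did any of the 28869 clusters (limma). At an unadjusted p under 0.05, ELOVL3 alone of these genes was lower in the Cr_large lines, by a log2 difference of -0.13 at a level near background, beside 4.39% of all clusters. The 95% intervals of the differences bounded ELOVL2 to between -0.30 and 0.18 and ELOVL6 to between -0.41 and 0.19 on the log2 scale. For FADS2 the interval ran from -0.98 to 0.75, so that it took in values from 1.97-fold lower to 1.69-fold higher.

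The parental array gave a further point of reference, with no replicate. The mean of the control lines was more than 1.5-fold from the parental value for 5 of the 10 genes, all of them lower in the control lines, where 2.29% of all clusters were lower by as much and 4.57% differed either way. FADS2 was 3.03-fold lower than the parental value of 10.47, ELOVL7 1.93-fold lower than 7.46, FADS3 1.77-fold lower than 10.24, ELOVL2 1.76-fold lower than 9.23 and FADS1 1.63-fold lower than 10.01. The mean of the Cr lines was past the same fold for 3 genes, against 6.94% of all clusters. These were ELOVL7, 2.74-fold above the parental cells, FADS3, 2.33-fold below them, and FADS2, 1.71-fold below them. ELOVL4 fell just short, at 1.499-fold above the parental cells with all 6 Cr lines above them. The count was 3 to 4 with a line left out. The 2 comparisons share the parental array. Both counts take in ELOVL7, whose values chose the family in part, so the shares of all clusters beside them are no test.

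The place of the parental cells therefore differed by gene. Their value fell within the range of the Cr lines for ELOVL1, ELOVL2, ELOVL3, ELOVL6 and FADS1, and within the range of the control lines for ELOVL4 at 6.85. It was between the groups for ELOVL7. For ELOVL5, at 11.47, and for FADS2 and FADS3 it was above all 9 lines.

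**Figure D3:**
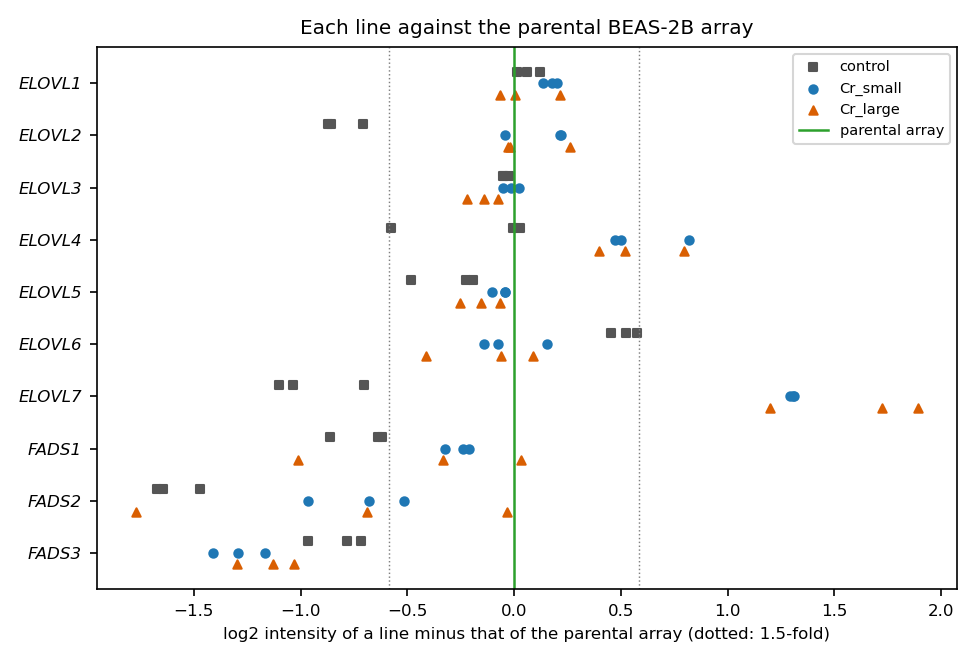
Log2 intensity of each line minus that of the single parental array (vertical line) for the 10 genes, with dotted lines at 1.5-fold. All 9 lines lie left of the parental array for ELOVL5, FADS2 and FADS3, and for ELOVL2 the control lines lie to the left while the Cr lines scatter about it.

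Of 16 genes outside the family that lie next to the 10 on their chromosomes, 3 were higher in the Cr lines, 0 lower and 13 not called, where 5.33% of all clusters were called higher and 5.72% lower. The 3 lie beside ELOVL1, ELOVL3 and ELOVL5, which did not themselves pass. At ELOVL7 on chromosome 5, the neighbours DEPDC1B and ERCC8 had log2 fold changes of -0.13 and -0.18 (limma adjusted p = 0.65 and 0.27). At ELOVL2 on chromosome 6, the antisense gene ELOVL2-AS1 was at background, with means of 4.66 in the control and 4.70 in the Cr lines. The 3 that were higher were CDC20, a cell cycle gene beside ELOVL1, at 1.41-fold, NOLC1, a nucleolar gene beside ELOVL3, at 1.36-fold, and GCLC, the catalytic subunit of glutathione synthesis beside ELOVL5, also at 1.36-fold.

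Besides the elongases and desaturases, 62 measured genes of fatty acid synthesis, activation, use and control were followed. Of these, 13 differed between Cr and control lines, 9 higher and 4 lower, where 11.0% of all clusters differed, 5.33% higher and 5.72% lower. The median log2 fold change of the 62 genes was 0.04, against 0.01 over all clusters. The lists were drawn up with earlier results of these data known, so the share of all clusters beside their counts is no test. Those below hold few genes each, so that their counts say little beside the same 11.0%. The count was 9 without control 1, control 2 or control 3. In the elongation cycle itself, 2 of 6 partners passed, beside 11.0% of all clusters. HSD17B12, the first reductase, was 1.49-fold higher (limma adjusted p = 0.0484), with means of 9.57 ± 0.12 in the control lines (SD, n = 3) and 10.14 ± 0.25 in the Cr lines (SD, n = 6). HACD3, a dehydratase, was 1.22-fold lower (adjusted p = 0.00735). The final reductase TECR, read from the brighter of its 2 clusters, did not pass, at 1.08-fold (limma adjusted p = 0.535). The HSD17B12 call was lost in 9 of 19 alternative settings, among them each control line left out.

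SCD, the desaturase that makes oleic acid, was the 1 gene of 5 other desaturases to pass. It was 8.69, 8.41 and 8.93 in the control lines, 9.51, 10.03 and 9.93 in the Cr_small lines and 9.56, 9.50 and 10.39 in the Cr_large lines. All Cr lines were above all control lines, and the rise was 2.21-fold (limma adjusted p = 0.0156), a call that was lost when control 1 was left out (adjusted p = 0.0604) and when control 2 was (adjusted p = 0.0584). Its parental value of 10.26 lay within the Cr range. The highest Cr line was Cr_large 3, as for FADS1 and FADS2. The lowest was Cr_large 2 at 9.50, close to Cr_small 1 at 9.51 and Cr_large 1 at 9.56, where Cr_large 1 was lowest for FADS1 and FADS2. None of the 5 cytochrome b5 genes and reductases that feed electrons to desaturases passed.

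Of 6 genes of new fatty acid synthesis, ACLY, which makes cytosolic acetyl-CoA, rose 1.43-fold (limma adjusted p = 0.0153) and ACACA, which makes malonyl-CoA for synthesis and elongation alike, rose 1.54-fold (adjusted p = 0.0396). The ACACA call was lost in 8 of 19 alternatives, among them each control line left out. FASN, the synthase that releases palmitic acid, had a log2 fold change of 0.43 and did not pass (adjusted p = 0.0993).

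Of 11 acyl-CoA synthetases and carriers, 3 passed, beside 11.0% of all clusters. ACSL4, which prefers arachidonic acid, was 11.29, 11.30 and 11.51 in the control lines and 10.52 to 10.74 in the Cr lines, 1.66-fold lower (limma adjusted p = 0.000736). SLC27A2, a very long chain acyl-CoA synthetase, was low in the control lines, at 4.90, 5.05 and 4.93, and was 5.53 to 7.19 in the Cr lines and 8.02 in the parental cells. The rise was 2.84-fold (adjusted p = 0.0283), a value that the constant added by RMA16 makes smaller in so dim a gene. It did not pass without any 1 of the control lines, without Cr_small 1 or without Cr_large 2. SLC27A1, a fatty acid transport protein, was 1.23-fold higher (adjusted p = 0.0472) with overlapping groups, and its call was lost in 11 of 19 alternatives.

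Downstream, CERS4, a ceramide synthase, was 1.55-fold higher (limma adjusted p = 0.00283), the 1 of 5 ceramide synthases to pass. LPCAT3, which places polyunsaturated chains in phospholipids, was 1.64-fold higher (adjusted p = 0.00894), the 1 of 8 genes of polyunsaturated chain release, remodelling and oxygenation. Of the 5 measured genes of peroxisomal very long chain oxidation, 0 passed.

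**Figure D4:**
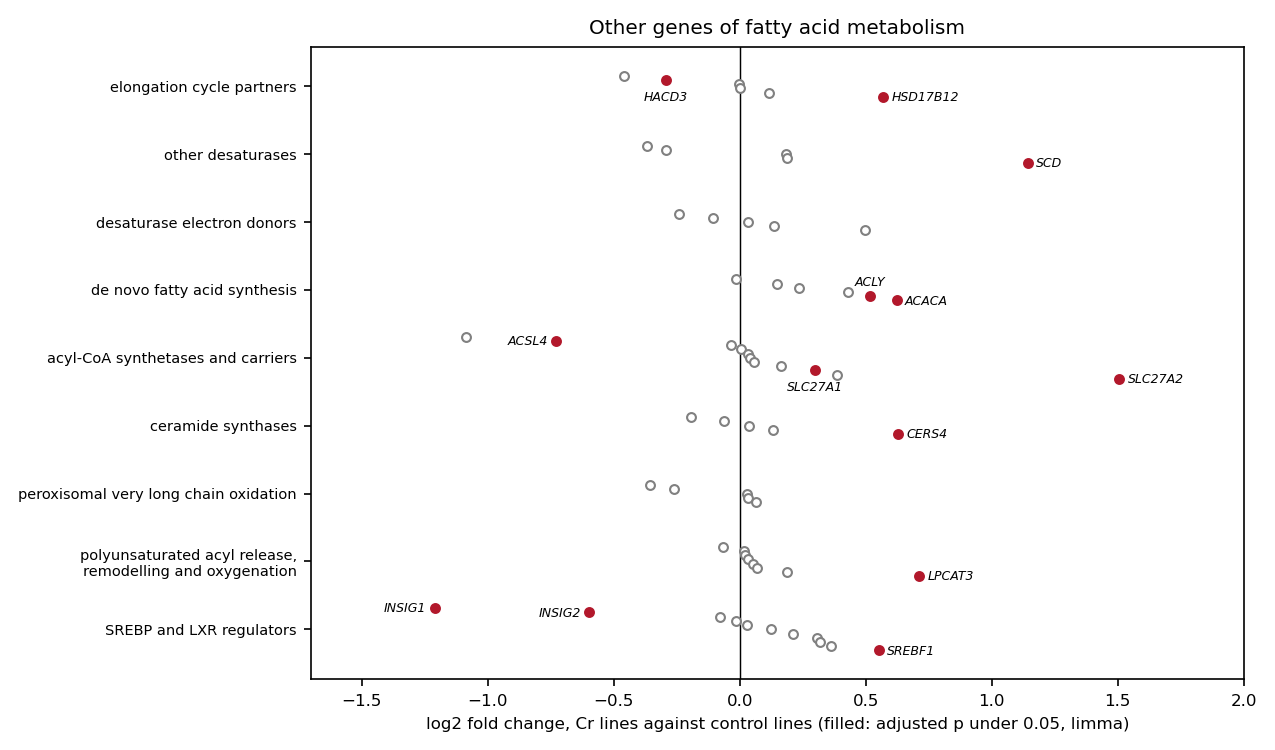
Log2 fold change of the Cr lines against the control lines for the 62 other genes of fatty acid metabolism, 1 point per gene, grouped by role. Filled points passed limma at an adjusted p under 0.05 and are named, 9 to the right of 0 and 4 to the left.

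Among 11 measured regulators, SREBF1, INSIG1 and INSIG2 passed, beside 11.0% of all clusters. SREBF1 encodes the transcription factor that switches on fatty acid synthesis and desaturase genes, and INSIG1 and INSIG2 encode the proteins that hold its precursor in the endoplasmic reticulum. INSIG1 was 8.82, 8.96 and 9.18 in the control lines, 7.56, 7.96 and 7.70 in the Cr_small lines and 7.60, 7.77 and 8.06 in the Cr_large lines. It was 2.31-fold lower (limma adjusted p = 0.00134) with no overlap, and its parental value of 9.36 was above all lines.

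INSIG2 read 8.40, 8.77 and 8.20 in the control lines and 7.75 to 7.95 in the Cr lines, 1.51-fold lower (limma adjusted p = 0.0126), with 9.27 in the parental cells. SREBF1 read 6.60, 6.42 and 6.37 in the control lines, 6.92, 7.07 and 7.11 in the Cr_small lines and 6.77, 7.16 and 7.04 in the Cr_large lines, 1.47-fold higher (adjusted p = 0.00946), with 6.87 in the parental cells. Both sets of Cr lines lay apart from the control lines. SREBF2, SCAP, NR1H3, RXRA, MLX, MLXIPL, PPARA and THRSP did not pass.

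**Figure D5:**
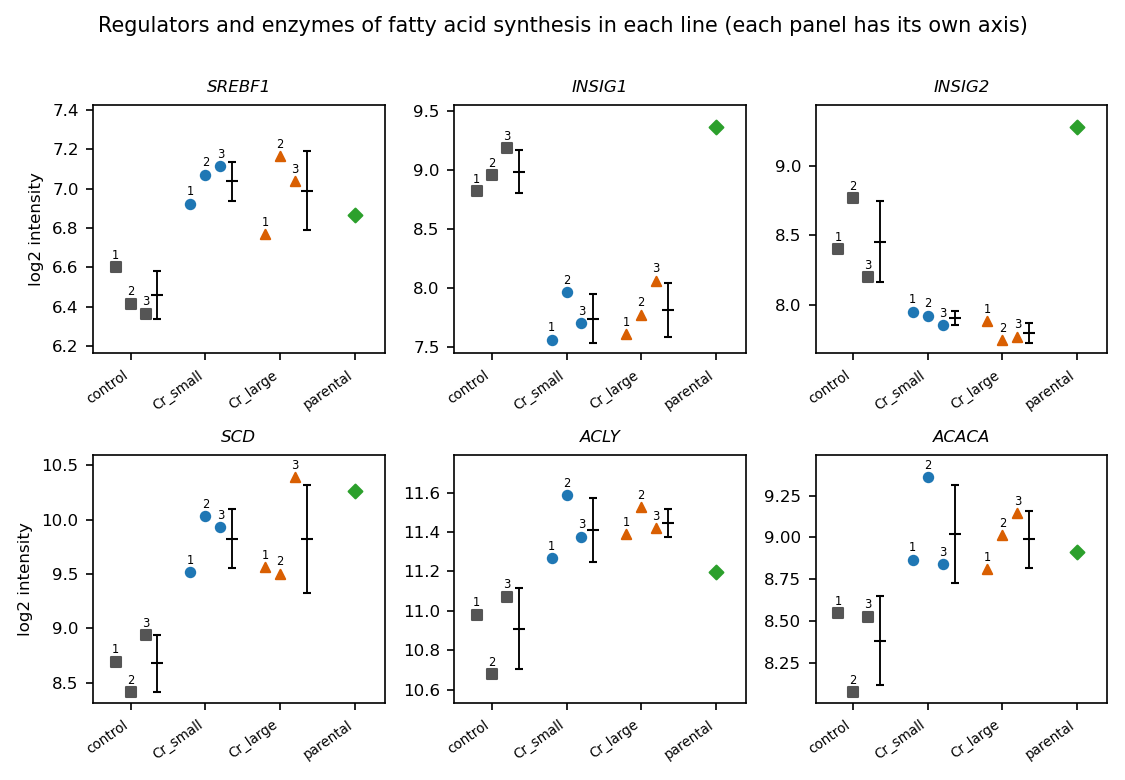
Log2 intensity of SREBF1, INSIG1, INSIG2, SCD, ACLY and ACACA in each of the 10 arrays, drawn as for the elongases, with the mean and SD of 3 lines and a separate axis in each panel. INSIG1 and INSIG2 lie lower in all 6 Cr lines than in the control lines and highest in the parental array, and the other genes lie higher in all 6 Cr lines than in the control lines.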

How the data were processed

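Affymetrix Human Gene 1.0 ST arrays were hybridized with RNA of 10 samples. The deposited values are linear intensities from RMA16 in GeneSpring v11, by which the authors removed background and applied quantile normalization. RMA16 also adds a constant that makes folds of dim genes smaller. Their log2 was taken. Means of the 4 groups were fitted over all 28869 clusters and 10 arrays with limma 3.58.1 in R 4.3.3, with 6 residual and 1.96 prior degrees of freedom. Benjamini-Hochberg adjustment covered all clusters, with a threshold of 0.05. Differences from the parental array rest on a fold of 1.5 alone. Folds were computed as 2 to the power of a difference between mean log2 values. Gene symbols come from the platform annotation, in which 19310 clusters had 1 symbol, 1752 several and 7807 none, and neighbours from the RefSeq gene order. Pathway genes and markers with more than 1 cluster, such as TECR and KRT18 with 2 each, were read from the cluster of highest mean intensity. The number of arrays limits the precision.

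The 10 genes, and the lists of 69 pathway genes (62 measured) and 33 markers (30 measured), were chosen with earlier results of these data known. All 10 genes are named, and of the lists those called, with SCD, SREBF1, HSD17B12 and TECR in any case, the 5 genes nearest to ELOVL7 and the called neighbours. Other genes are named only as examples that did not pass. The main steps were tested on simulated data. Whether the line numbers pair the lines was checked, and the residuals of same-numbered lines correlated from -0.145 to 0.0984 in 9 pairs, so lines were not taken as paired. The alternatives were the methods' t-test, limma with trend and robust moderation, the arrays of the compared groups alone, leaving out the dimmest 25% of clusters or those without exactly 1 symbol, quantile normalization again, centring on medians, averaging the clusters of a gene, a replicate block and leaving out each line. Python 3.11.15 with matplotlib 3.10.9 drew the figures.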

Additional observations from a re-analysis of the deposited data

Results flagged for a closer look

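FADS1 in the line Cr_large 1 stood apart from the other Cr lines. Its log2 intensity was 9.00, the next Cr line was at 9.68, and the gap took 0.648 of the range of the 6 lines, above Dixon's 95% critical value for 6 values. Among 24 genes checked in this way it was the 1 that exceeded the value, and chance alone does so in about 1 of 20 groups.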

How the results depend on the processing

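ELOVL2 and ELOVL4 kept their calls in the Cr lines under all 19 alternatives, with adjusted p from 2.51e-05 to 0.00792 and from 0.00244 to 0.0452. No called difference of the 10 genes or of the named pathway genes changed direction under any alternative. With each line left out in turn, the genes called besides ELOVL7 numbered 2 to 6 in the Cr lines (4 with all lines), 1 to 5 in the Cr_small lines (4) and 1 to 4 in the Cr_large lines (3). The highest of the first range came without Cr_large 1 and the lowest without control 3. After Benjamini-Hochberg, the methods' t-test called 0 genes for Cr_small and 0 for Cr_large, and it lost FADS3 in the 6 Cr lines (adjusted p = 0.0503). At an unadjusted p under 0.05 it called 7 in the Cr_small lines, 1 between Cr_large and Cr_small lines, and 25 of the other pathway genes (13 by limma). Pathway calls ran from 9 to 14 with a line left out. With a replicate block of line numbers, 4, 3 and 2 genes were called in the Cr, Cr_small and Cr_large lines, 0 between the Cr groups and 14 of the pathway genes, and HSD17B12 (adjusted p = 0.0582) and ACACA (adjusted p = 0.088) were lost. The line numbers were not taken as pairs. Centring each array moved the median of all clusters from 0.01 to -0.02. The cause of these changes was not tested. The 3 lines a group and the 1 parental array limit the precision, and the signal of ELOVL3 lay near background.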
